A study of Salmo salar with 58 samples.

Results

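Enniatin B and beauvericin are cyclic depsipeptide toxins made by Fusarium moulds that grow on cereals. Their rings alternate a hydroxy acid with an N-methylated amino acid, a valine in enniatin B and a phenylalanine in beauvericin. The responses compared here are those of the liver of Atlantic salmon (Salmo salar) to any of 4 exposures. The members are all 23 exposed liver libraries, chosen by their titles, and the 6 control liver libraries, which makes 29 of the 58 libraries of the series, the others being distal intestine. Among the exposed, 6 had the low and 6 the high dose of enniatin B, while 5 had the low and 6 the high dose of beauvericin, each from fish exposed acutely in vivo for 12 h. The labels name doses only as low and high, and give neither what the control fish received nor the strain, age or sex. Nothing in them ties a replicate number to 1 fish, so the p-values measure only the spread between samples, which may be technical.

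The liver takes up, alters and excretes foreign compounds, and its hepatocytes make plasma proteins, bile and lipoproteins. Both toxins carry cations across membranes, which in other systems disturbs ion gradients and mitochondria. Fish red cells keep their nucleus and go on making RNA, so a piece of liver with blood in it carries erythroid transcripts. These are the messages for heme synthesis, for the red cell membrane skeleton and for the erythroid transcription factors gata1 and tal1. Erythropoietin, through its receptor epor, keeps erythroid precursors alive.

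Each library held 30.7 to 61.7 M assigned reads (M, 1e6 reads), with 31.3 to 35.5 M in the controls. High beauvericin replicates 1 and 3 were the deepest at 57.8 and 61.7 M, and no other liver library held more than 39.9 M. No liver library stood apart in overall expression, each having a median correlation with the others of 0.937 to 0.957. The 12 hepatocyte marker genes were all present at levels that identify the tissue, with hpxa, the heme-binding plasma protein hemopexin, at normalized counts of 408832 to 1029071. Values are normalized read counts, in which the reads of a gene are divided by a factor of the library. Differences are given on the scale of log2(normalized count + 2), as the mean of the 4 exposed group means minus the control mean, ± standard error.

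Across the 4 exposures, a small set of liver transcripts was lower than in control by the pooled test and none was higher. Of 25157 genes tested, 10 fell, which is 0.0398% of all genes, and 0 rose in limma and in edgeR (723 higher at an unadjusted limma p under 0.05). They include epor, the erythropoietin receptor, and ripor3. The other 8 carry a number in place of a name. The falls lay between -1.09 and -0.62, with standard errors of 0.118 to 0.217. The limma adjusted p-values, by the Benjamini-Hochberg method over all genes, lay between 0.0461 and 0.0498, all just under the threshold of 0.05. Without low beauvericin none passed (lowest limma adjusted p of the 10 genes 0.573, median difference -0.78), nor without low enniatin B (0.172). With the 23 exposed libraries as 1 group none passed either (0.149). A fit of all 58 libraries called 7 lower, 4 of them among the 10, and 4 higher.

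Expression of epor ranged from 222 to 403 in the controls, with a median of 307. In low enniatin B it ranged from 94.3 to 208 (median 152), and in high enniatin B from 94.7 to 285 (median 157). The 5 low beauvericin libraries held 121.9, 95.2, 172.3, 101.2 and 146.7, and high beauvericin ranged from 97.3 to 247 (median 172.5). All 23 exposed libraries were therefore below the control median, and 20 of them below the lowest control. The difference was -1.03 ± 0.20 (95% confidence interval -1.44 to -0.63, n = 23 against 6, limma adjusted p = 0.0461), or a level 2.05 times lower in exposed fish.

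The levels of ripor3 hardly varied among controls, from 298 to 369 with a median of 315. In the exposed libraries they ran from 88.1 to 354 (median 157), and 22 of 23 lay below every control. The exception was high enniatin B replicate 5, at 353.9. The difference was -0.997 ± 0.192 (limma adjusted p = 0.0461). By group it was -0.97 and -0.74 for low and high enniatin B, and -1.37 and -0.91 for low and high beauvericin, all against the same 6 controls.

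The gene with the cleanest separation was LOC106612419, with 349.9 to 408 in the controls (median 360.3) and 171 to 339 in exposed fish (median 248). All 23 exposed libraries were below all 6 controls. No other gene of the 25157 tested separated in this direction (0.00398%), and none had all exposed libraries above all controls. For the partial counts given for other genes, above (epor and ripor3) and below, the share over all genes was not counted. Those genes were mostly picked by this same comparison, so high counts go with the choice. The difference was smaller than for the other genes, at -0.62 ± 0.12 (limma adjusted p = 0.0461).

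LOC106587020 had 431 to 607 in the controls (median 499) and 173 to 591 in exposed libraries (median 238). LOC106573466 had 471 to 621 (median 533) against 153 to 622 (median 278). For each of them 22 exposed libraries lay below the lowest control, and the exception was again high enniatin B replicate 5. LOC106573055, with the smallest p of all genes, ran from 446 to 798 in the controls (median 648) and from 196 to 650.1 in exposed fish (median 356), with 17 below every control and a difference of -0.90 ± 0.16 (limma adjusted p = 0.0461).

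The remaining 4 genes were lower in the same way. LOC106585259 had a control median of 713 and an exposed median of 382, LOC100196543 had 404 and 208, GeneID:106570025 had 1589 and 758, and LOC106582882 had 278 and 132. Between 18 and 20 of the 23 exposed libraries lay below the lowest control for these genes. GeneID:106570025 and LOC106582882 are the pair at an adjusted p of 0.0498.

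**Figure D1:**
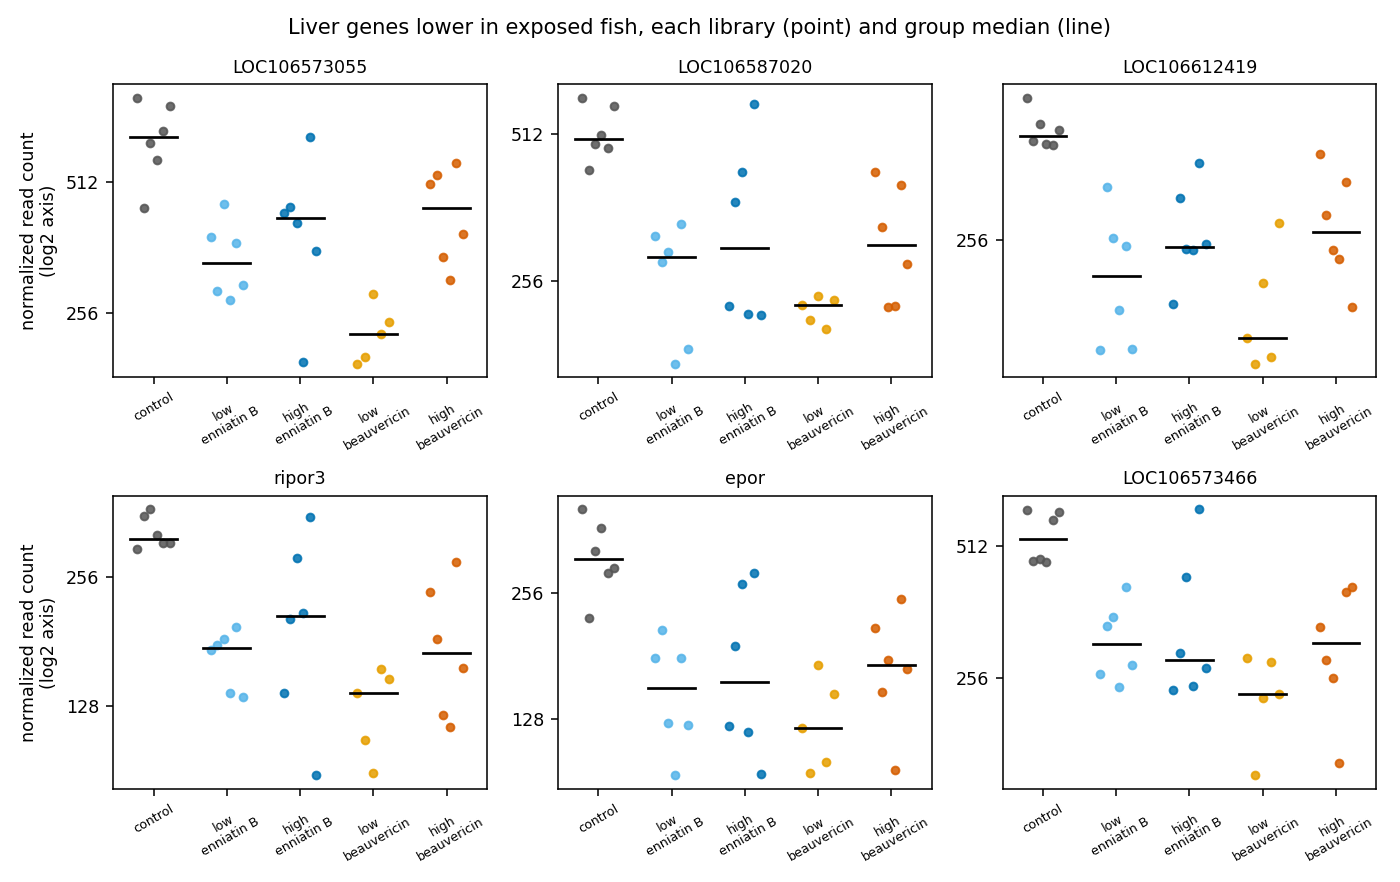
Normalized read counts (log2 axis) of 6 genes that fell, in each of the 29 liver libraries by group; points are libraries and lines are group medians. Exposed libraries mostly lie below all controls, with the 5 low beauvericin libraries low for each gene and 1 high enniatin B library at control levels for 5 of the 6 genes.

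The falls were not carried evenly by the libraries. Over the 10 genes, 16 of the 23 exposed libraries lay below every control for all of them. High enniatin B replicate 5 lay at or above the lowest control for 9 of 10 genes and at or above the control median for 7. High beauvericin replicates 5 and 1 reached the control range for 6 and 5 genes. The 4 others with any gene in that range had 1 or 2. Each group stood lower than control for every gene. The 10 genes were picked by the pooled comparison of these same libraries, so low libraries and low groups were likely beforehand. How many of all genes show this was not counted. The median difference over the 10 genes was -0.96 in low enniatin B, -0.70 in high enniatin B, -1.36 in low beauvericin and -0.79 in high beauvericin, and these values share the 6 controls.

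Because the adjusted p-values sit so close to the threshold, the number of genes called moved with small changes, while the estimates moved less. Leaving out each of the 29 libraries in turn gave 0 to 18 genes, with 0 without any of 19 of the libraries, which include controls 1, 3, 4, 5 and 6. Without control 2 the count was 1. Genes passed without low enniatin B replicates 3 (12) or 5 (9), high enniatin B replicates 3 (6), 4 (1) or 5 (18), low beauvericin replicate 5 (3), or high beauvericin replicates 1 (10), 4 (9) or 5 (11). Without any other exposed library the count was 0. The median difference of the 10 genes stayed between -1.01 and -0.87 in all of these fits. These fits reuse nearly all the libraries by which the genes were chosen, so such steadiness was likely beforehand. All 10 genes kept a lower estimate under each of the 49 alternatives tried, where epor ran from -1.127 to -0.642 and LOC106573055 from -1.017 to -0.534. edgeR's quasi-likelihood test on the recovered reads called 9 genes, all lower (0.0358%), and DESeq2 called 22 lower (0.0892%) and 2 higher (0.00811%) of the 24662 genes to which it gave an adjusted p.

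**Figure D2:**
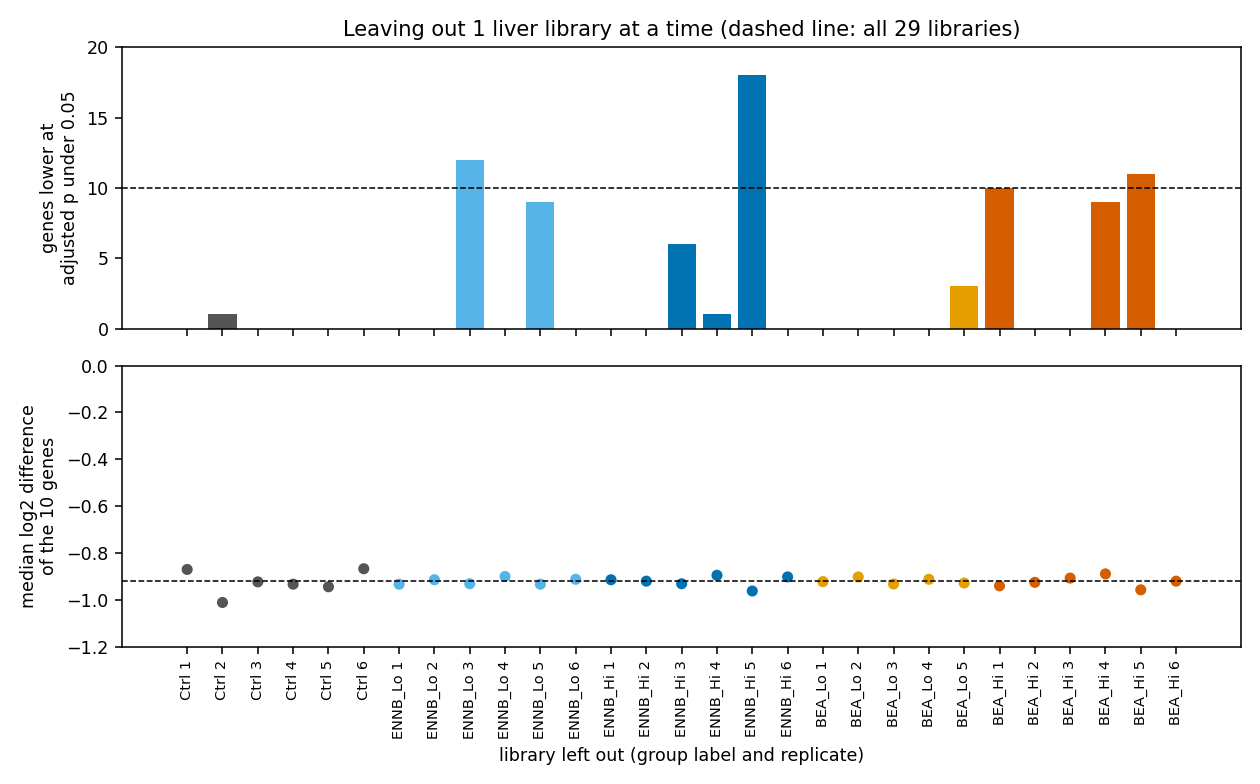
Upper panel, number of genes lower in exposed liver at a limma adjusted p under 0.05 when 1 library is left out; lower panel, the median log2 difference of the 10 genes called with all libraries. Bars are absent for 19 libraries and reach 18 without high enniatin B replicate 5, while the medians stay between -1.01 and -0.87.

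Since only 2 named genes passed, the 10 named genes with the smallest p are described; all 10 had lower estimates and the other 8 did not pass. tal1, a transcription factor of erythroid and blood stem cells, had 188 to 316 in the controls (median 269.5) and 62.9 to 324 in exposed fish (median 123), a difference of -0.98 ± 0.22 (limma adjusted p = 0.172). ank1a encodes an ankyrin, the protein that in red cells ties the spectrin skeleton to the membrane. Its difference was -0.79 ± 0.19 (limma adjusted p = 0.266), and 19 of 23 exposed libraries lay below the lowest control.

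Of the other named genes, 5ntc, for a cytosolic nucleotidase that acts on purine nucleotides, had -1.01 ± 0.23 and tmem43, for a protein of the inner nuclear membrane, -0.59 ± 0.14 (limma adjusted p = 0.172 for both). apoob, a relative of the mitochondrial inner membrane protein apolipoprotein O, had -0.68 ± 0.15 (limma adjusted p = 0.155). lpin2, a phosphatidate phosphatase of triglyceride synthesis, had -0.78 ± 0.19, the splicing factor gene tra2a -0.40 ± 0.10, and hif1al2, a fish member of the hypoxia-inducible factor family, -0.80 ± 0.20 (limma adjusted p = 0.272 for all 3). For hif1al2, 21 of 23 exposed libraries lay below the lowest control.

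**Figure D3:**
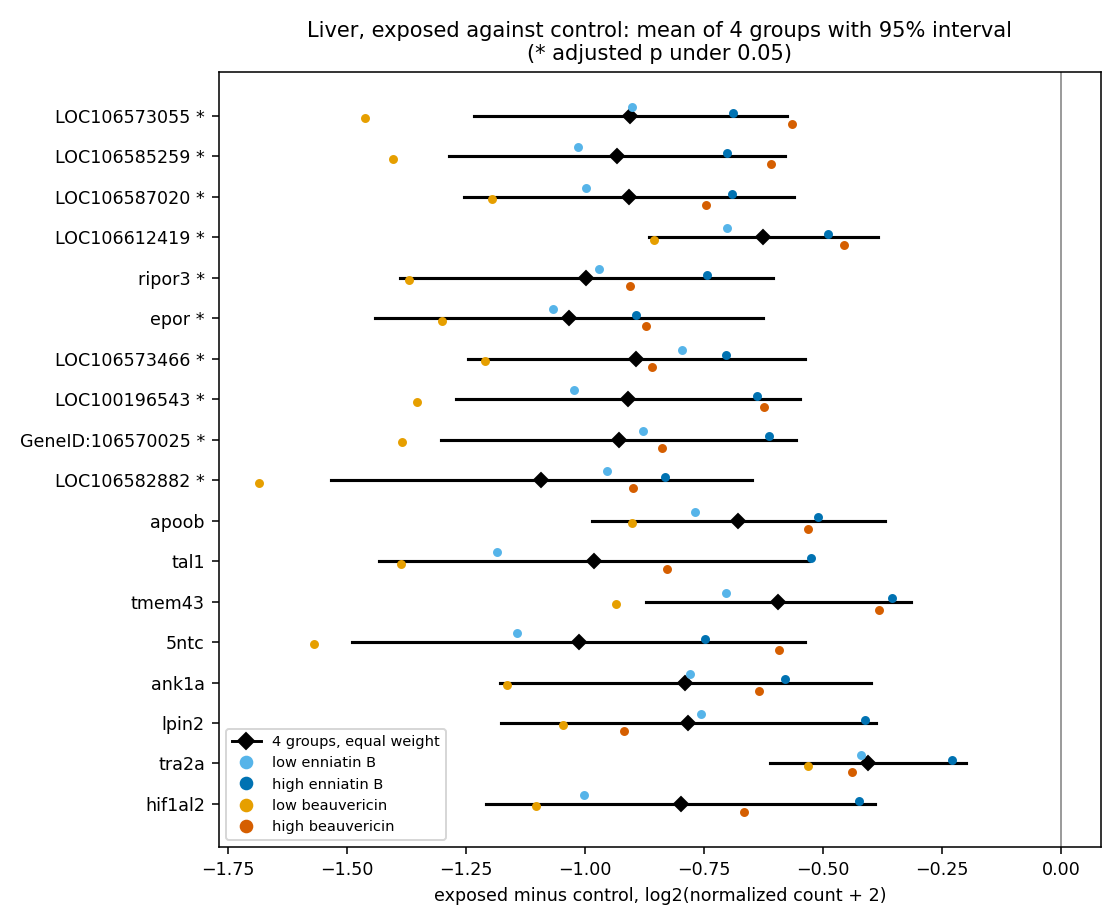
Exposed minus control on the log2(normalized count + 2) scale for the 18 genes named by rule; diamonds and lines are the mean of the 4 groups and its 95% interval, coloured points are the 4 groups, and stars mark the 10 genes past the threshold. Every group lies below 0 for every gene, with low beauvericin lowest for all 18 and high enniatin B (12 genes) or high beauvericin (6) nearest to 0. The genes were picked by the pooled comparison, so group values on the same side of 0 were likely beforehand.

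Red cell genes formed the marker list with the lowest median difference. Of its 12 measured genes 9 had lower estimates (48.5% of all genes). Of these 9, 7 had an unadjusted limma p under 0.05, against 3.07% of all genes, and 1, epor, passed over all genes. The median difference of the list was -0.54, against 0.01 over all genes. By group it was -0.66 and -0.38 in low and high enniatin B, and -0.75 and -0.32 in low and high beauvericin, against the same controls. The summed normalized count of the list, of which tfr1a is the largest part, overlapped fully, from 12492 to 24028 in the controls (median 19578.5) and from 10322 to 25982 in exposed fish (median 17937). In high beauvericin its median was 20877.5, above that of the controls. In whole liver, fewer red cells and less of these messages per cell cannot be told apart.

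The erythroid genes did not move as 1 block. gata1, the master transcription factor of red cells, had 274 to 449.5 in the controls (median 335) and 66.2 to 592 in exposed fish (median 182), a difference of -0.82 ± 0.27 (limma adjusted p = 0.622). alas2, the first enzyme of erythroid heme synthesis, had -0.82 ± 0.31 and cahz, the red cell carbonic anhydrase, -0.73 ± 0.28 (limma adjusted p = 0.742 and 0.746). Their control values spread widely, from 1781 to 8029 for alas2 and from 651 to 2641 for cahz.

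The erythroid factor nfe2 had -0.35 ± 0.16 and the ammonia channel rhag -0.26 ± 0.19. slc25a37, the mitochondrial iron importer, had -0.12 ± 0.21. The heme enzymes cpox and ppox, which hepatocytes also use, had 0.09 ± 0.11 and 0.04 ± 0.09, and the transferrin receptor gene tfr1a had 0.19 ± 0.13.

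Genes that fell also followed the red cell genes from library to library within groups. Over the 29 libraries, the correlation of each gene's deviation from its group mean with that of alas2 and cahz lay between 0.306 and 0.843 for the 10 genes, with a median of 0.692, and 7 of the 10 were over 0.5, as were 2.41% of all genes. The median over all genes was -0.005. All genes of a library share its sequencing depth and scaling factor, and no p is given. For epor the value was 0.718 and for ripor3 0.342. A fit added after the data had been seen took the level of alas2 and cahz as a covariate. The median difference of the 10 genes was then -0.58 in place of -0.92, and none passed (lowest limma adjusted p = 0.477). Both covariate genes had lower estimates in exposed liver themselves (-0.82 and -0.73), so smaller differences in that fit were likely beforehand. Whether red cell content underlies the falls was not tested. The largest estimates in that fit were those of LOC106582882 (-0.91), ripor3 (-0.82) and epor (-0.64).

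Markers of other cells gave 1 list that lay apart on the high side. All 6 measured genes of the exocrine pancreas, digestive protease and elastase genes, had higher estimates (51.5% of all genes), with a median of 1.15, and none passed. Their summed normalized count ran from 4.0 to 108 in the controls (median 53.5) and from 25.4 to 733 in exposed livers (median 82.3). These ranges overlapped, but unevenly by group. The medians of high enniatin B (145.7) and high beauvericin (140.6) lay above the highest control. Those of low enniatin B (80.3) and low beauvericin (58.2) lay within the control range. The chymotrypsin-like protease gene ctrl had the smallest p of the list (1.54 ± 0.55, limma adjusted p = 0.701), with a control median of 0. Group medians of the list were 0.87 and 1.47 in low and high enniatin B, and 0.28 and 2.08 in low and high beauvericin. These levels are tiny beside those of hepatocyte genes, and their part in other results was not tested.

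The 12 hepatocyte markers had a median difference of 0.08, with 9 higher estimates (51.5% of all genes) and none that passed. Medians of the bile duct, endothelial and stellate, macrophage and neutrophil, lymphocyte and intestinal lists lay between -0.05 and 0.07. They rest on only 3, 9, 7, 2 and 6 tested genes, in that order. No marker of these lists was at 0 in all liver libraries, and among the lymphocyte and intestinal markers 2 of 4 and 5 of 9 had mean levels under 10.

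Pathway lists moved little in the mean of the 4 groups. Of 33 lists, 28 had a median within 0.1 of 0, and no member of any list passed other than epor in the red cell list. The medians ran from -0.29 for cholesterol synthesis to 0.20 for a list of 2 estrogen-responsive genes, 1 higher and 1 lower. Single groups lay further from 0 for some lists. The immediate early list had -0.045 and 0.111 in low and high enniatin B, and 0.443 and -0.095 in low and high beauvericin. For inflammatory cytokines and signalling the values were -0.116, 0.301, -0.007 and -0.151 in the same order.

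**Figure D4:**
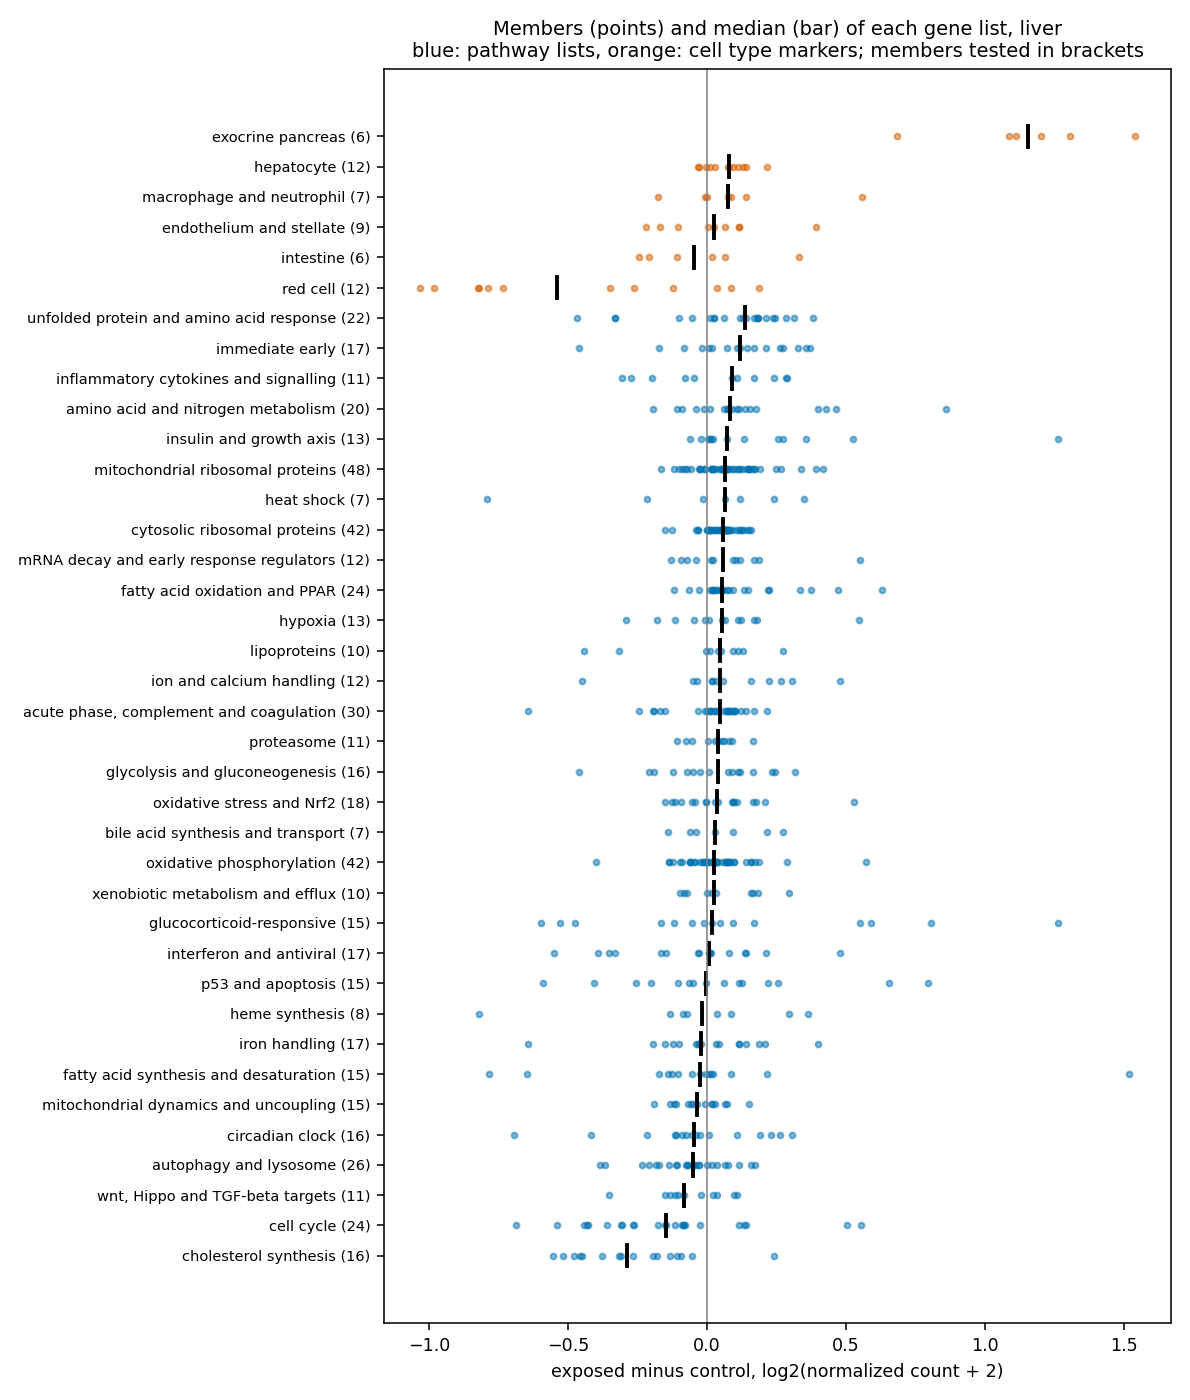
Exposed minus control on the log2(normalized count + 2) scale for each member (point) and the median (bar) of the 38 gene lists with 4 or more genes tested; pathway lists are blue and cell type markers orange. Most medians lie near 0, with the red cell list at -0.54 and the exocrine pancreas list at 1.15.

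The cholesterol synthesis list holds enzymes and also srebf2, insig1 and stard4, which are not enzymes of the pathway. Of its 16 genes 15 had lower estimates (48.5% of all genes), 2 of them with an unadjusted p under 0.05 (3.07% of all genes), and none passed. The list median was -0.20 and -0.43 in low and high enniatin B, -0.36 in low beauvericin and -0.05 in high beauvericin, against the same controls. mvk, for mevalonate kinase, had 304 to 588 in the controls (median 482) and 204 to 554 in exposed fish (median 323), a difference of -0.46 ± 0.17 (limma adjusted p = 0.723). The sterol desaturase gene sc5d had -0.45 ± 0.20 and the squalene synthase gene fdft1 -0.55 ± 0.33. For each of these 3 genes 1 or 2 of the 23 exposed libraries lay above the control median. For sc5d high beauvericin was at -0.04 while the other groups lay between -0.72 and -0.50.

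In lipid metabolism the lipins pointed in opposite directions. lpin1a, a phosphatidate phosphatase and coactivator of fasting genes, ran from 25.7 to 481 in the controls (median 75.5) and from 63.8 to 1071 in exposed fish (median 289), and 22 of 23 exposed libraries lay above the control median. Its difference was 1.52 ± 0.51 (limma adjusted p = 0.678), while lpin2 had -0.78. thrsp, a regulator of fatty acid synthesis, had -0.65 ± 0.33. Of 24 genes of fatty acid oxidation and PPAR signalling 21 had higher estimates (51.5% of all genes), with a median of 0.05. acaa2, a mitochondrial thiolase, had the smallest p of them (0.37 ± 0.14, limma adjusted p = 0.739).

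Of 20 genes of amino acid and nitrogen metabolism 15 had higher estimates (51.5% of all genes), with a median of 0.08. bhmt, which remethylates homocysteine with betaine, had 3707 to 11430.4 in the controls (median 4578) and 4131 to 50731 in exposed fish (median 9118), a difference of 0.86 ± 0.35 (limma adjusted p = 0.794). gnmt, which uses up S-adenosylmethionine, had 0.40 ± 0.19. Both had 21 of 23 exposed libraries above the control median.

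Among the listed genes of toxin handling and of cell stress none passed. The xenobiotic list was matched by symbol and holds no cytochrome P450 gene, so it does not cover those enzymes. The 10 measured genes of xenobiotic metabolism and efflux had a median of 0.03, with the aryl hydrocarbon receptor gene ahr2b at 0.18 ± 0.12, the pregnane X receptor gene nr1i2 at 0.17 ± 0.15 and the canalicular exporter gene abcc2 at -0.08 ± 0.08. The 18 genes of oxidative stress and Nrf2 had 0.03, and the 42 subunits of oxidative phosphorylation 0.03 with 24 higher and 18 lower. Of 22 genes of the unfolded protein and amino acid response 17 had higher estimates (51.5% of all genes), with a median of 0.14. By group this median was 0.10 and -0.04 in low and high enniatin B and 0.29 and 0.17 in low and high beauvericin, against the same controls. The translocon subunit gene sec61b had 0.24 ± 0.08 and the stress factor gene ddit3 -0.33 ± 0.16. hsc70, a constitutive heat shock chaperone, had -0.79 ± 0.21 (limma adjusted p = 0.423), and 15 of 23 exposed libraries lay below the lowest control. hspa8, another entry for a constitutive chaperone of this kind, had -0.01 ± 0.13. The heat shock factor gene hsf2 had -0.22 ± 0.10, and the 7 heat shock genes had a median of 0.06, with 4 higher and 3 lower.

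Ribosomal protein genes had small pooled differences, which were not positive in every group. In mitochondrial ribosomes 36 of 48 had higher estimates, with a median of 0.07 and 4 with an unadjusted p under 0.05, against 2.87% of all genes. These were mrpl36 (0.39 ± 0.13), mrps18a (0.42 ± 0.16), mrpl47 (0.34 ± 0.13) and mrpl43 (0.26 ± 0.12). In cytosolic ribosomes 36 of 42 had higher estimates, with a median of 0.06. Over all genes 51.5% had a higher estimate. In high enniatin B the medians were -0.04 for mitochondrial and -0.02 for cytosolic ribosomes, and in low enniatin B 0.03 for both. In low beauvericin they were 0.10 and 0.11, and in high beauvericin 0.15 and 0.12, all against the same controls.

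Of 24 cell cycle genes 19 had lower estimates (48.5% of all genes), with a median of -0.15, while the cyclin gene ccnd2 had 0.55 ± 0.19 (limma adjusted p = 0.656). Of 16 circadian clock genes 10 had lower and 6 higher estimates (48.5% and 51.5% of all genes), with a median of -0.05. Among the higher were bhlhe40 (0.30 ± 0.18) and clocka (0.19 ± 0.18). The 2 lowest were npas2 and roraa, which had -0.69 ± 0.22 and -0.42 ± 0.15, and 22 and 21 of the 23 exposed libraries lay below the control median. The estrogen receptor gene esr2a had 276 to 611 in the controls (median 444) and 388 to 1015 in exposed fish (median 647), a difference of 0.53 ± 0.16 (limma adjusted p = 0.492). The other gene of the estrogen-responsive list, esr1, had -0.14 ± 0.31.

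The higher side held single genes that were steady across the exposures without passing. They were picked after their values were seen, so this steadiness is no test. How many of all genes show it was not counted. hxb7a, a homeobox gene chosen after its values were seen, had 10.7 to 18.6 in the controls (median 13.4) and 16.6 to 61.1 in exposed fish (median 29.4). In the control livers 1 read is a value of 1.33 to 1.78, so its control levels are few reads. All 23 exposed libraries lay above the control median and 18 above the highest control. Its difference was 0.93 ± 0.24 (limma adjusted p = 0.318), and the 4 groups lay between 0.82 and 1.15. LOC106586429, chosen the same way, was also above the control median in all 23, with 1.73 ± 0.40 (limma adjusted p = 0.172). DESeq2 called LOC106589124 and dchs2, an atypical cadherin gene, higher, with control medians of 3.77 and 16.5 normalized counts. Their limma adjusted p-values were 0.373 and 0.742.

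Whether the 4 exposures differed among themselves was asked by an F test that leaves out the control mean. Its estimate of spread comes from all 5 groups, the controls included. In limma 0 of 25157 genes passed and 1488 had an unadjusted p under 0.05 (5.91%), and edgeR called 4 (0.0159%). Of the 10 genes that fell, 6 had an unadjusted p under 0.05 in this test, with low beauvericin lowest, and the smallest limma adjusted p was 0.547. The 4 genes that edgeR called were LOC106598526, LOC106601729, LOC106571028 and LOC106592182. Each was highest in low beauvericin, where LOC106592182 had a mean of 11620 ± 6937 (SD, n = 5) against 3433 to 4043 in the 4 other groups.

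For some list members the pooled estimate averages group estimates of very different size. tsc22d3, a leucine zipper gene induced by glucocorticoids, had a pooled difference of 0.80 ± 0.26 (limma adjusted p = 0.624). It had 1260 to 4125 in the controls (median 2003), 1189 to 3933 in low enniatin B and 1591 to 4835 in high enniatin B. It reached 4859 to 9762 in low beauvericin and 3531 to 7304 in high beauvericin. Its group differences were 0.02 and 0.23 for enniatin B and 1.65 and 1.32 for beauvericin, and the F test among exposures gave an unadjusted p of 5.80e-05 (limma adjusted p = 0.182), which does not pass.

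tisb, a factor of mRNA decay, had pooled 0.55 ± 0.18, and its groups, in the same order, were 0.12, 0.31, 1.181 and 0.59 (limma adjusted p = 0.476 in the F test). igfbp1a, a binding protein of insulin-like growth factors made in fasting and stress, had 0.27, 0.83, 3.15 and 0.80 (limma adjusted p = 0.759). The 15 glucocorticoid-responsive genes as a list had a median of 0.02, with 8 higher and 7 lower. They include zfp36l1a and zfp36l1b, close relatives of tisb, which had pooled differences of 0.17 ± 0.19 and 0.09 ± 0.12.

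**Figure D5:**
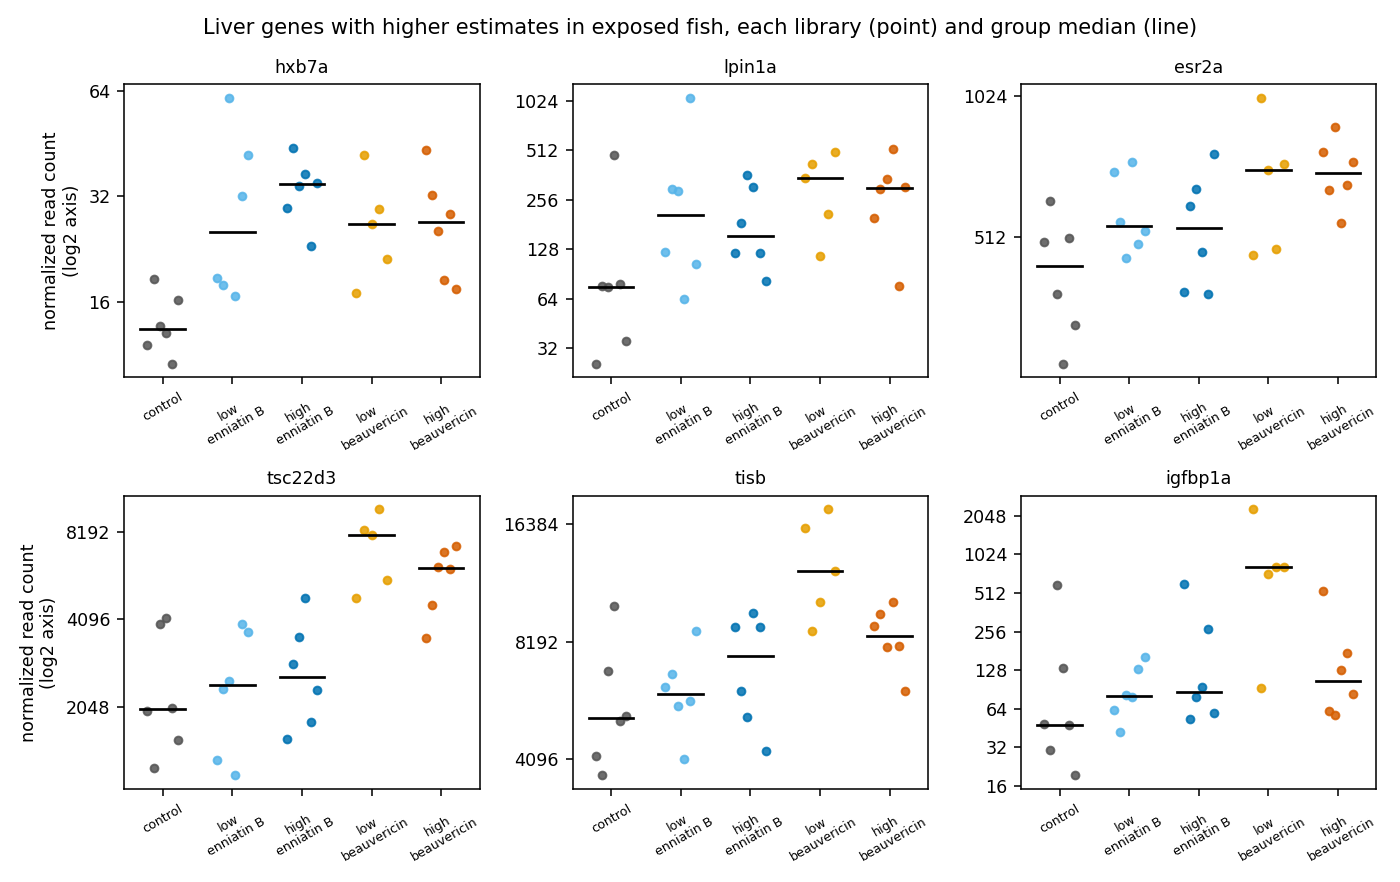
Normalized read counts (log2 axis) of 6 genes with higher pooled estimates, none past the threshold and all chosen after their values were seen, in each of the 29 liver libraries by group; points are libraries and lines are group medians. hxb7a lies above the control median in all exposed libraries, while tsc22d3 is high in the beauvericin libraries and near control levels in most enniatin B libraries.

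The precision of the pooled comparison is known gene by gene. The 95% interval of the difference lay within 1 of 0 on the log2 scale for 22282 genes (88.6%) and within 0.5 for 13732 (54.6%), and its median half-width was 0.332. Over all genes 1496 had an unadjusted p under 0.05 (5.95%), 773 lower and 723 higher.

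The fit over both tissues set the liver differences against those of the distal intestine of the same exposures, for 24519 genes. Intestine controls 5 and 6 stand apart, with normalized counts of 1.4 and 1.8 for npc1l1, the cholesterol uptake protein of enterocytes, against 3719 or more in the 27 other intestine libraries, so values without them are given too. The 10 genes that fell in liver had intestine differences of -0.67 to 0.30, and -0.94 to 0.36 without these 2 controls. The liver minus intestine difference was below 0 for all 10 in both cases, at -1.21 to -0.26 and at -1.27 to -0.16. The genes were chosen by the liver part of this difference, so values below 0 and small unadjusted p-values were likely beforehand. None passed (limma adjusted p = 0.0517 to 0.794, and 0.413 to 0.957), and 5 of 10 had an unadjusted p under 0.05 (17.1% of all genes) with all controls and 7 of 10 (6.31% of all genes) without the 2. In intestine itself 9 of 10 had lower estimates, 5 of the 10 with an unadjusted p under 0.05 (25.4% of all genes), and without the 2 controls 4 had lower estimates and 1 of the 10 such a p (6.44%). A liver fall particular to that organ is thus not shown.

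Over all genes this difference between tissues passed for 10 genes (0.0408%), and for 0 without intestine controls 5 and 6, where 1546 had an unadjusted p under 0.05 (6.31%). Liver and intestine libraries of the same group and number deviated together, with a median correlation of 0.233 over 29 pairs (lowest 0.0387). Pairs of the same group with different numbers had a median of -0.0544, which centring on group means pushes below 0. With libraries of the same group and number paired, a fit chosen after seeing the data, 27 genes passed (0.11%). Among the 10 genes of the unpaired fit with all controls, the named ones were fam78ab, micu3b, exoc3l2b and churc1. None of these is among the 10 genes that fell in liver. micu3b encodes a regulator of the mitochondrial calcium uniporter. In the unpaired fit its liver minus intestine difference was -1.56 (limma adjusted p = 0.0349), but without intestine controls 5 and 6 no gene passed.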

How the data were processed

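Messenger RNA was selected on oligo(dT) beads after extraction with QIAzol, per the labels' protocols. Reads were handled with Trim Galore 0.4.2, FastQC, HISAT2, featureCounts of Subread and DESeq2 1.18.1, per the submitters' processing notes; the genome build is not given in the sources used here, and the counting's strand setting neither. The deposited signal is a normalized count that the authors scaled by 1 factor per library. Multiplied back, 99.9999% of values lay within 0.1 read of a whole read, the largest distance being 0.171. The table holds 26239 genes with a lowest mean of 21.1, so weak genes are missing. Names for 24184 genes came from Ssal_v3.1, 7529 of them other than LOC numbers; near-identical copies may share reads.

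Log2(value + 2) was analysed with limma (trend, robust) for genes with 10 or more in at least 5 liver libraries, in 5 groups without covariates. edgeR, DESeq2 and voom used the recovered reads. Tools were edgeR 4.0.16, statmod 1.5.0, limma 3.58.1 and DESeq2 1.42.0 in R 4.3.3. The liver limma fit was tested on simulated counts drawn independently for each gene, so genes that vary together were not covered. No libraries of a group were identical within sampling noise. Named genes are the 15 higher and 15 lower with the smallest p past the threshold that have a name, the 3 with the smallest p of any kind, the 10 named with the smallest p where fewer than 5 pass, and up to 4 per list. Members, lists and tests were chosen with earlier results of these data known. Lists were matched by symbol, so LOC genes are in none.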

Additional observations from a re-analysis of the deposited data

Results flagged for a closer look

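In 3 of 90 gene and group sets of the genes named by rule, 1 library lay far from the others of its group; chance gives about 1 in 20. High enniatin B replicate 5 was far above its group for GeneID:106570025, with a normalized count of 2230.2, and for LOC106582882, with 276.5. Low beauvericin replicate 2 was far below its group for LOC100196543, with 104.9.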

How the results depend on the processing

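The count of 10 genes lower in exposed liver became 0 with no filter on low values, with array weights, with the 23 exposed libraries as 1 group, with depth as a covariate, with the red cell level as a covariate (chosen after seeing the data), without low enniatin B, without low beauvericin, and without the 2 deepest libraries. It was 24 with DESeq2 (22 lower, 2 higher), 19 with the replicate block and 29 without high enniatin B (28 lower, 1 higher). Leaving out 1 library gave 0 to 18. Counts were 8 to 15 with the other filter, pseudocounts, scalings, edgeR, voom, without high beauvericin, and with all 58 libraries in 1 fit, which called 7 lower and 4 higher. The count for differences among the 4 exposures was 0, and 4 with edgeR; leaving out 1 library gave 0 to 1. Genes that differed between tissues went from 10 to 0 without intestine controls 5 and 6, to 44 with the replicate block, and to 27 when libraries of the same group and number were paired (also chosen after seeing the data).

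Replicate numbers did not pair the liver libraries: over 56 pairs with the same number, deviations from group means correlated at -0.213 to 0.306 (median 0.00622), and 3 libraries correlated best with their own number. Of 3322 gene values under alternatives, for 68 genes, 6 changed sign: with the red cell covariate cahz was 0.003291 and slc25a37 0.21; without control 1 slc25a37 was 0.008321; without high beauvericin cpox was -0.01272 and ppox -0.04173; without control 6 ppox was -0.0569. Over the fits without 1 library, ppox ran from -0.0569 to 0.06637 and slc25a37 from -0.2027 to 0.008321. cahz is itself part of the red cell covariate, so its value near 0 in that fit is built in. The cause of the other sign changes was not tested. The exocrine pancreas median was 1.68 with a pseudocount of 0.5 and 0.69 with 8. Weak genes are limited by depth, and the calls by adjusted p-values close to the threshold.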
